A study of Mus musculus with 4 samples.

Results

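Polycomb and trithorax group genes encode opposing chromatin machineries, and 42 of them, of 21911 protein-coding genes in the GENCODE M21 annotation of mm10, were read here from a list of genome regions found near PML bodies. They were given as a list of symbols, chosen with earlier results of these data known, and all 42 were found in the annotation. They comprised 10 genes of Polycomb repressive complex 2 (PRC2), 20 of Polycomb repressive complex 1 (PRC1) and 12 of the H3K4 methyltransferase complexes. A listed region counted as a promoter peak of a gene when it touched the stretch reaching 1 kb to each side of the annotated 5' end. A distal peak has its midpoint within 50 kb of the 5' end but outside that window.

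PRC2 methylates lysine 27 of histone H3 and PRC1 ubiquitinates histone H2A, and both keep developmental genes silent. The trithorax-type complexes methylate lysine 4 of histone H3, a mark of active and poised promoters. In embryonic stem cells the PRC2 mark and the trithorax mark meet at the promoters of many developmental regulators, which are then called bivalent. PML bodies are nuclear assemblies built on the PML protein.

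The series used ALaP-seq, in which the peroxidase APEX, fused to PML, tags nearby chromatin with biotin when hydrogen peroxide is supplied. All 4 samples were E14 mouse embryonic stem cells with an APEX-PML knock-in, and all were grown with leukemia inhibitory factor, CHIR99021 and PD0325901. They formed 2 groups of 2, labelled H2O2+ (peroxide given) and H2O2- (peroxide left out, the negative control). The deposited list of 26496 peaks merges replicates and names no sample, so treated and control cells were not compared, whether the controls entered the list is unknown here, the depth is unknown here, and no spread between replicates exists for any value below. The list carries no score and no RNA level, so a peak's width is its only value, the cell type could not be checked against markers, and no p-value was computed. Over the whole list the median width was 223 bp.

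The promoter sequence of a few members shows the range of base composition behind the results. The first 3 lines are the genes with the widest promoter peak in PRC2, PRC1 and the H3K4 methyltransferase group, and the other 3 are the members with the most CpG-rich promoters among those lacking a promoter peak. Each line gives the 200 bases directly upstream of the 5' end in mm10 (GRCm38), 5' to 3' on the gene's strand. Capitals mark matches, on either strand, to 6 short words: the GC box GGGCGG, the CCAAT box CCAAT, the ETS core CCGGAA, the NRF1 core GCGCATGCG, the E-box CACGTG and TGACGT, part of the cyclic AMP response element.
Rbbp4, chr4:129335371-129335570, minus strand: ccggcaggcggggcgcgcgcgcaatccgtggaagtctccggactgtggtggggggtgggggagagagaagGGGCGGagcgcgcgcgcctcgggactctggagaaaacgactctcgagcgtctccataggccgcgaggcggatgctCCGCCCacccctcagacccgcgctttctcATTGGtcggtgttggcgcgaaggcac
Phc1, chr6:122340562-122340761, minus strand: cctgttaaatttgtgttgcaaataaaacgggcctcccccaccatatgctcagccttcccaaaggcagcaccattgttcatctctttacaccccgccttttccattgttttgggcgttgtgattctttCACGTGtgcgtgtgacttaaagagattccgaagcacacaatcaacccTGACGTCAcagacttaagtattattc
Men1, chr19:6334779-6334978, plus strand: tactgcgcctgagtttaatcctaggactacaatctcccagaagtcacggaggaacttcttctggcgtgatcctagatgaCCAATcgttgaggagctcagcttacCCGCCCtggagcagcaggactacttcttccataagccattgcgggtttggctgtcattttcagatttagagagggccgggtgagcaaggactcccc
Yaf2, chr15:93336936-93337135, minus strand: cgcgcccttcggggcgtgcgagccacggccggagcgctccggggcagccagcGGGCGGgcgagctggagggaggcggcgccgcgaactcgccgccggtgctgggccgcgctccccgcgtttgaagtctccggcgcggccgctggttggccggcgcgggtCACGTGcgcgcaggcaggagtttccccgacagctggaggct
Rybp, chr6:100287486-100287685, minus strand: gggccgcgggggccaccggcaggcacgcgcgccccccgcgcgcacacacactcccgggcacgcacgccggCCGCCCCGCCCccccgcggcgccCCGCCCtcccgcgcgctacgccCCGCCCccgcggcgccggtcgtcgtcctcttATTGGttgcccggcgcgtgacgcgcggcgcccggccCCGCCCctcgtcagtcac
Bmi1, chr2:18676818-18677017, plus strand: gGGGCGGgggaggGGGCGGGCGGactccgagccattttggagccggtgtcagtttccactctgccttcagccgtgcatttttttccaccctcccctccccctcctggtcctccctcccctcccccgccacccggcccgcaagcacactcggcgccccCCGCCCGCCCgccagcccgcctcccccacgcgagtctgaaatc

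In the first 3 genes all 200 bases lay under the peak. Rbbp4 had 26 CpG dinucleotides there at 70.0% GC, whereas Phc1 had 7 at 45.5% GC and Men1 had 7 at 52.5% GC. Of the 3 genes without a peak, Yaf2 had 34 and Rybp 40, more than any of the first 3, and Bmi1 had 17, fewer than Rbbp4 but more than Phc1 and Men1. The Phc1 window held an E-box and 2 matches to TGACGT that overlap as a palindrome, TGACGTCA. Rybp and Bmi1 each held 5 GC boxes, some of them overlapping. Over the members, a GC box was present in this window at 18 of 32 genes with a promoter peak (56.2%) and 9 of 10 without one, beside 37.5% of all protein-coding genes and 56.9% of those with a promoter peak. The 2 sets of members were not matched for CpG content. Of the 10 without a peak, 9 were in the CpG-rich classes 8 to 10, defined below, beside 20 of the 32 with one. The CCAAT box was found at 9 of 42 members (31.7% of all genes), the ETS core at 5 (12.2%), the E-box at 5 (5.64%), TGACGT at 3 (6.5%) and the NRF1 core at 1 (1.98%).

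Promoter peaks were present at 32 of the 42 genes, where 38.4% of all protein-coding genes had one. By complex, they were present at 9 of 10 PRC2 genes, 10 of 12 H3K4 methyltransferase genes and 13 of 20 PRC1 genes. Across all 21911 genes the share rose with promoter CpG content, the ratio of observed to expected CpG over 500 bp either side of the 5' end, ranked into 10 classes of equal size. It was 69.8% in classes 8 to 10 together and 24.9% in classes 1 to 7. Of the 29 members in classes 8 to 10, 20 had a promoter peak, a share close to that background. Of these, PRC2 had 6 of 7, the H3K4 methyltransferase group 8 of 9 and PRC1 6 of 13. In the lower classes 12 of 13 members had a peak, all but Dpy30 of class 2. Those 12 lay in classes 5, 6 and 7, where 34.3%, 53.3% and 64.7% of all genes had one. The median CpG ratio was 0.80 in PRC2 and 0.81 in each of the other groups, beside 0.55 over all genes, so the groups hardly differed in this median. Whether the complexes differ in their share was not tested. The authors mapped reads to a repeat-masked genome, and a median of 8.22% of the bases within 1 kb of the 5' end were repeat-masked in the 10 members without a promoter peak, against 13.7% in the 32 with one. The highest values were 54.8% at Dpy30, without a peak, and 44.5% at Ezh1, with one.

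**Figure D1:**
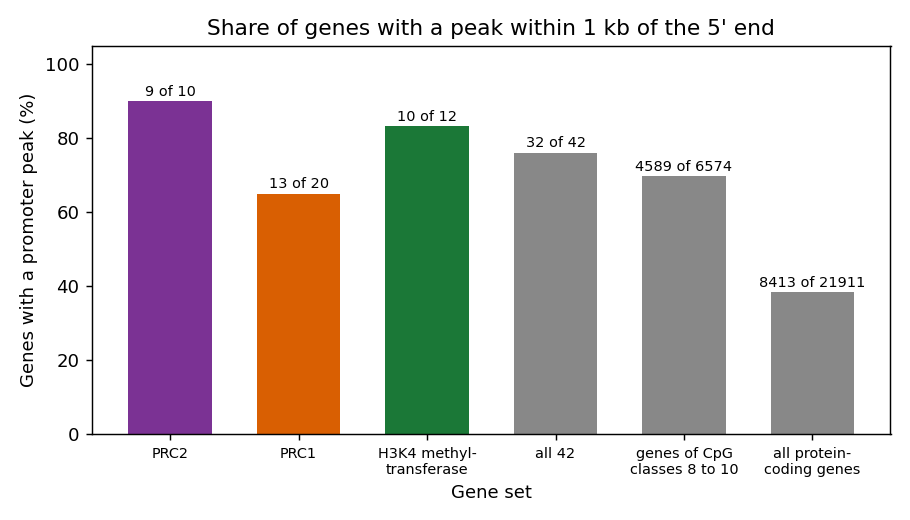
Bars give the percent of genes with a peak within 1 kb of the 5' end in each gene set on the x axis, with counts above the bars. PRC2 and the H3K4 methyltransferase genes stood above the genes of CpG classes 8 to 10, and the 13 of 20 PRC1 genes stood below them. The bars are not matched for CpG class: 3 PRC2, 3 H3K4 methyltransferase and 7 PRC1 genes were in classes 1 to 7.

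The core of PRC2 was covered throughout. Ezh2, the main H3K27 methyltransferase of dividing cells, Eed, which binds the finished mark, and Suz12, the scaffold subunit, carried 3 separate promoter peaks each, and no other member had more than 2. Among all protein-coding genes 0.671% had 3 or more, and 6.85% had 2 or more, as did 7 of the 42. Counting only genes with a promoter peak, 1500 of 8413 had 2 or more, beside 7 of 32 members. Likewise, 147 of the 8413 had 3 or more, beside 3 of the 32 members. At Ezh2 (ENSMUSG00000029687) on the minus strand of chromosome 6, a peak of 491 bp (47595250 to 47595740) spanned the 5' end, and those of 167 and 145 bp followed in the gene, in an exon and an intron. Suz12 on chromosome 11 had a peak of 617 bp (79992406 to 79993022) ending 84 bp before the 5' end and smaller ones of 100 and 177 bp inside the gene. Eed on chromosome 7 had peaks of 242 bp upstream (89981026 to 89981267) and 193 and 111 bp in exon sequence. Only 55 and 128 bp parted the 3 peaks of Eed, whereas the gaps were 230 and 428 bp at Ezh2.

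Rbbp4, which encodes a histone-binding subunit that PRC2 shares with other complexes, had 1 peak of 976 bp (chromosome 4, 129335007 to 129335982). It lay over the 5' end and also within 1 kb of that of the neighbouring Zbtb8os. Of the 8413 genes with a promoter peak, 98.5% had a widest one no wider than this. Ezh1, the paralog of Ezh2 that prevails in non-dividing cells, had 1 peak of 136 bp (chromosome 11, 101226427 to 101226562), at the 10.3 percentile.

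Of the 5 accessory genes of PRC2, 4 had a promoter peak. Among the Polycomb-like proteins, which link PRC2 to CpG islands, Mtf2 had a peak of 580 bp over its 5' end on chromosome 5 (108065338 to 108065917). Phf1 had one of 201 bp on chromosome 17 (26932918 to 26933118), and Phf19 had none within 1 kb. The nearest peak to the 5' end of Phf19, 178 bp wide, lay 8770 bp away in the gene, at 2 of the other 4 annotated starts of the gene. Jarid2, a substrate and cofactor of PRC2, had peaks of 348 and 390 bp on either side of its 5' end on chromosome 13, 585 and 907 bp away. The second of these, at 44730381 to 44730770, lay 4 bp from another annotated start. Aebp2, the partner of Jarid2 in one form of the complex, had a peak of 327 bp in an exon 693 bp downstream of the 5' end (chromosome 6, 140623356 to 140623682), and it overlapped another start of that gene. At neither gene did a peak cover the 5' end of the model.

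Both catalytic subunits of PRC1 had a promoter peak of ordinary width. Rnf2 encodes RING1B, the main H2A ubiquitin ligase of embryonic stem cells, and its peak of 273 bp spanned the 5' end (chromosome 1, 151500851 to 151501123). Ring1, the paralog, had 257 bp in an intron, 80 bp downstream (chromosome 17, 34024344 to 34024600). The median over all genes with a promoter peak was 281 bp.

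The PCGF proteins, which pair with the RING subunits and set the type of PRC1, were covered at 3 of 6 genes, and none of these peaks reached the 5' end. Pcgf1 had 293 bp starting 420 bp downstream, over another start (chromosome 6, 83078289 to 83078581). The peak of Pcgf2, which encodes MEL18, was 207 bp wide and began 619 bp downstream (chromosome 11, 97699672 to 97699878). Pcgf3 had 126 bp just upstream (chromosome 5, 108461076 to 108461201). Bmi1, the close paralog of Pcgf2, had none, nor did Pcgf5 and Pcgf6, and no annotated start of these 3 genes had a peak. Their CpG ratios of 0.85 to 0.98 put them in classes 9 and 10. The nearest peak lay 3007 bp from the 5' end of Bmi1, 16539 bp from that of Pcgf6 and 36211 bp from that of Pcgf5.

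Canonical PRC1 adds CBX proteins, which read the H3K27 mark, and PHC proteins, which polymerise. All 4 CBX genes on the list had a peak: Cbx7, the main CBX gene of embryonic stem cells, one of 616 bp (chromosome 15, 79970722 to 79971337), Cbx6 one of 498 bp, Cbx2 one of 409 bp and Cbx8 one of 286 bp. The peaks of Cbx7 and Cbx2 spanned the 5' end, and those of Cbx6 and Cbx8 began 130 and 48 bp downstream. The Cbx6 peak also lay within 1 kb of the 5' end of the nearby gene Npcd. The PHC genes were unlike each other. Phc1 had the widest promoter peak of all 42 genes, 1056 bp over and upstream of the 5' end (chromosome 6, 122340443 to 122341498), together with a peak of 320 bp in an intron. These 2 peaks differed in base composition, with 44.1% GC in the wide one and 86.2% in the narrow one. Phc3 had a single peak of 120 bp (chromosome 3, 30969409 to 30969528), and Phc2 had none. Scmh1, which encodes a PHC-binding subunit, had none either, and its nearest peak was 117155 bp away.

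The subunits of variant PRC1, which assembles without CBX proteins, divided evenly. Kdm2b, whose product binds unmethylated CpG islands, had a peak of 303 bp (chromosome 5, 122989301 to 122989603), and L3mbtl2, a subunit of the Pcgf6 form, had one of 623 bp over its 5' end (chromosome 15, 81663363 to 81663985). Rybp and its paralog Yaf2, which take the place of CBX proteins, had none within 1 kb. These are the most CpG-rich promoters of the 42, with ratios of 1.02 and 1.10. Rybp had a peak of 110 bp at an internal start 54354 bp downstream, and the nearest peak to Yaf2 was 60885 bp away.

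The H3K4 methyltransferase genes mostly had peaks upstream of the 5' end. Of the catalytic genes, Kmt2a (MLL1) had 462 bp spanning the 5' end on chromosome 9 (44881289 to 44881750) and a further 243 bp upstream. Kmt2b (MLL2), which places the mark at bivalent promoters, had 444 bp on chromosome 7 (30588790 to 30589233), ending 64 bp upstream. The enhancer-type enzymes Kmt2c and Kmt2d had peaks of 330 and 508 bp that lay farther off, 792 and 766 bp upstream. That of Setd1b, of 284 bp, lay 995 bp upstream and only just entered the window. Its paralog Setd1a had no peak at any annotated start, the nearest being 6728 bp away. The window's edge decided none of the members without a peak: Setd1b, at 995 bp, was the last inside it, and Bmi1, at 3007 bp, was the nearest outside.

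The subunits shared by all these enzymes were covered at 3 of 4 genes. Wdr5, the scaffold, had 414 bp (chromosome 2, 27514784 to 27515197), Ash2l 472 bp (chromosome 8, 25847515 to 25847986) and Rbbp5 328 and 176 bp on either side of its 5' end. Dpy30 had none at the 5' end of its model, which lies in CpG class 2 (2.65% of such genes had a peak), but a peak of 330 bp lay at 5 of its 6 annotated starts, 7409 bp downstream (chromosome 17, 74316371 to 74316700). Men1, the menin gene, whose product tethers the MLL1 and MLL2 complexes, had 602 bp (chromosome 19, 6334614 to 6335215). Cxxc1, the CpG-binding subunit of the SETD1 complexes, had 257 bp over its 5' end.

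**Figure D2:**
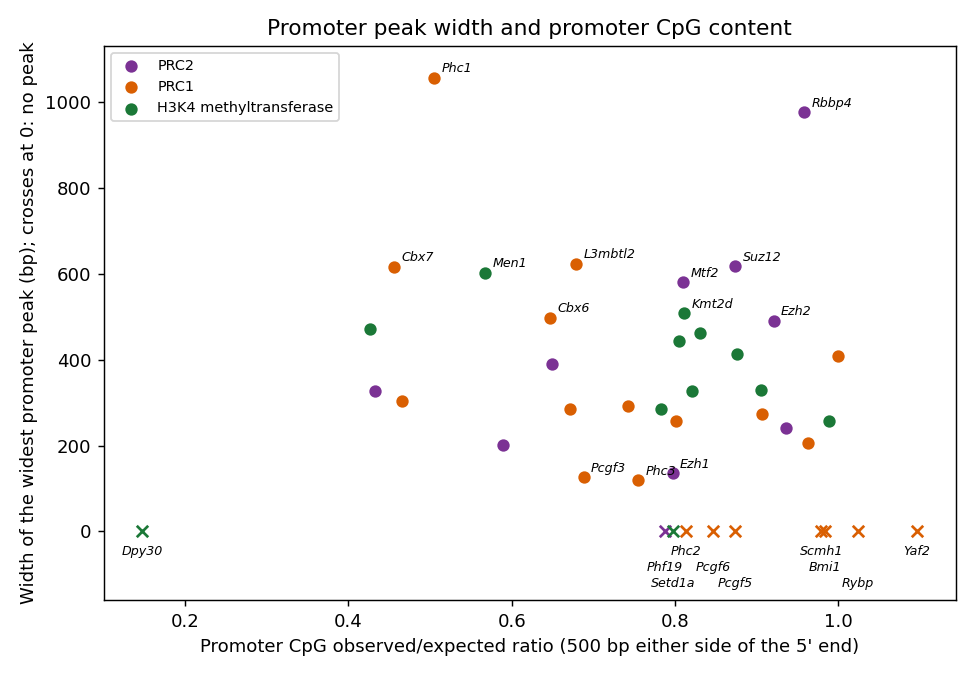
Each point is 1 gene, with its promoter CpG observed/expected ratio on the x axis and the width of its widest promoter peak in bp on the y axis, and crosses at 0 are genes without a promoter peak. Phc1 (1056 bp) and Rbbp4 (976 bp) stand highest, at ratios of 0.51 and 0.96, and 7 of the 10 crosses lie between the lowest and the highest ratio of the genes with a peak.

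Among the 32 genes with a promoter peak, the median of the widest was 360 bp, against 281 bp over all genes with one. It was 390 bp in PRC2, 293 bp in PRC1 and 429 bp in the H3K4 methyltransferase group. A promoter peak of at least 500 bp was present at 8 of 42 members (6.3% of all protein-coding genes): Phc1, Rbbp4, L3mbtl2, Suz12, Cbx7, Men1, Mtf2 and Kmt2d. Counting only genes with a promoter peak, these were 8 of 32 members, beside 1381 of 8413 genes. At 16 of 32 genes the widest peak spanned the 5' end, compared with 56.7% of all genes with a promoter peak. Its midpoint lay upstream in 10 of 10 H3K4 methyltransferase genes, 7 of 9 PRC2 genes and 5 of 13 PRC1 genes, where 51.1% of all genes had it upstream. With all annotated starts of each gene, 35 of 42 members had a peak, the added ones being Phf19, Rybp and Dpy30, and 42.4% of all genes had one.

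Distal peaks were found around 37 of the 42 genes, and 61.1% of all protein-coding genes had at least 1. The median was 4 per member and 1 over all genes. At least 5 were present at 18 members (15.9% of all genes) and at least 10 at 3 (3.05%). Other sets of chromatin genes, described below, had medians of 3 to 3.5. PRC2 genes had a median of 5, the H3K4 methyltransferase genes 4.5 and PRC1 genes 3.5. In all, 182 distinct distal peaks lay around the 42 genes, with a median of 228 bp and 55.3% GC, against 312 bp and 66.4% for their 42 promoter peaks. Of the 184 pairs of a gene and a distal peak, 75 were between protein-coding genes and 50 at the promoter of another protein-coding gene. A further 33 were in the body of another protein-coding gene, 14 in the gene's own body and 12 at another start of the gene itself. Noncoding genes were not considered in this sorting. Peaks of Jarid2, Kmt2d and Setd1b, 1 each, counted as both promoter and distal because they reach into the window with the midpoint outside it.

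**Figure D3:**
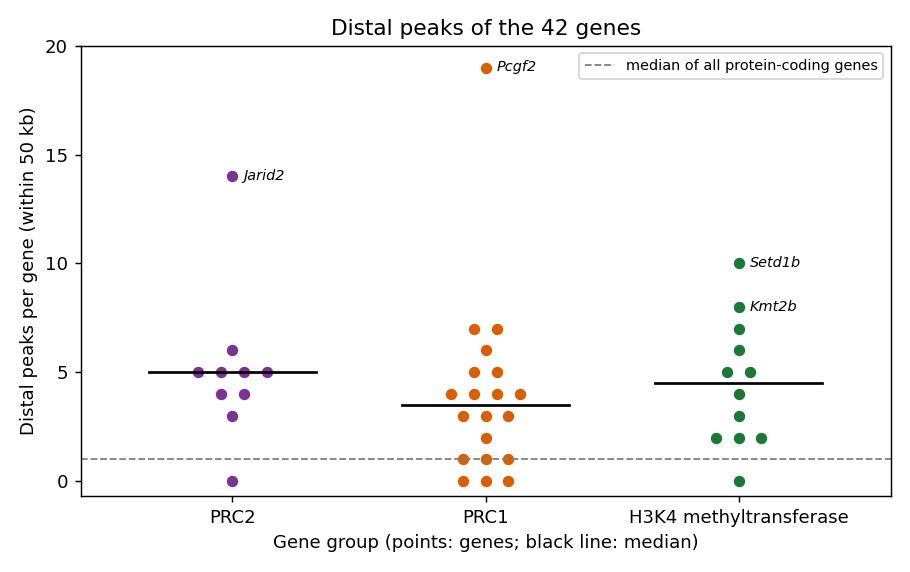
Points are genes, placed by complex on the x axis and by the number of distal peaks within 50 kb on the y axis, with black lines at the medians of 5, 3.5 and 4.5 and a dashed line at the median of all protein-coding genes, 1. Pcgf2 (19), Jarid2 (14) and Setd1b (10) stand above the rest.

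Pcgf2 had the most, 19, of which 17 lay downstream of its 5' end. A group of 8 peaks between protein-coding genes, 38337 to 46976 bp from the 5' end, ran up to the promoter of Mllt6. This group included one of 1050 bp (chromosome 11, 97661636 to 97662685). The others included peaks at the promoters of Mllt6, Cisd3, Psmb3 and Pip4k2b. Jarid2 came next with 14. Its 9 upstream peaks all lay between protein-coding genes, the widest of 1139 bp about 24 kb upstream (chromosome 13, 44704980 to 44706118). Another 3 were at other starts of Jarid2.

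Setd1b, with 10, had the widest distal peaks of any member, 1544 and 1272 bp (chromosome 5, 123137714 to 123139257 and 123134735 to 123136006), 3708 and 6823 bp upstream. Kmt2b had 8, of which 4 lay at the promoters of Hspb6 and Proser3, Lin37, Zbtb32 and Cox6b1. The 7 distal peaks of Setd1a, which lacked a promoter peak, all lay upstream, near Fbxl19 and Orai3. Cbx7 and Phc3 had 7 each. Those of Cbx7 were all inside the gene, 4 of them at other starts of it 37314 to 39518 bp from the 5' end. Phc1 had 5, including one of 765 bp only 1896 bp upstream. Cbx2 and Cbx8 neighbour each other on chromosome 11 and shared 2 distal peaks, and each one's promoter peak was among the other's distal peaks.

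No distal peak lay around Ezh2, Ash2l, Phc2, Scmh1 or Yaf2. The first 2 had a promoter peak. The PRC1 genes Phc2, Scmh1 and Yaf2 had neither kind, as did 30.8% of all protein-coding genes. Around the H3K4 methyltransferase genes 43 of 54 gene and peak pairs (79.6%) were upstream, around PRC2 genes 37 of 51 (72.5%) and around PRC1 genes 37 of 79 (46.8%), with 52.1% over all genes. Of the 42 PRC1 pairs that lay downstream, 17 belonged to Pcgf2.

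**Figure D4:**
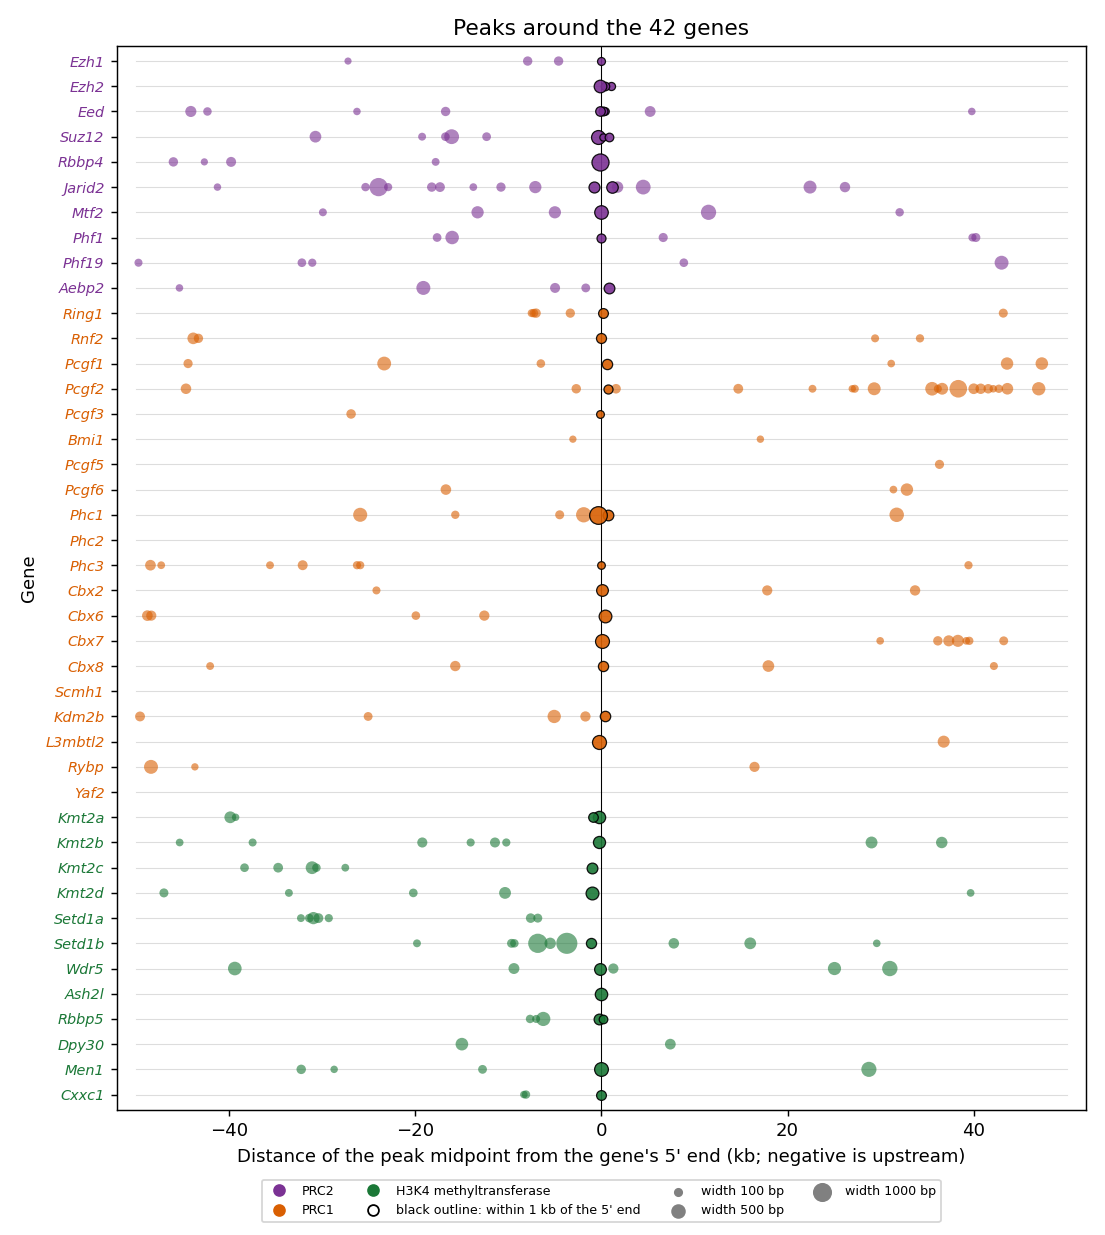
Each row is 1 gene, and each point is a peak at the distance of its midpoint from the 5' end in kb, negative upstream, with point size for width and a black outline for promoter peaks. The rows of Phc2, Scmh1 and Yaf2 are empty, and the densest rows are those of Pcgf2 and Jarid2.

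Other genes of both pathways gave shares like those of the members on the autosomes. Of 46 further genes found in the annotation, 39 were autosomal, and 29 of these had a promoter peak, with a median width of 365 bp. Over all autosomal protein-coding genes 40.3% had one. Of the 39, 32 were in CpG classes 8 to 10, and 24 of those 32 had a peak, near the 69.8% of all genes in these classes. By list, 16 of 20 autosomal polycomb genes and 13 of 19 autosomal trithorax genes had one. Many of the trithorax genes encode subunits of BAF-type chromatin remodellers. The widest among the polycomb genes were at Csnk2b (574 bp), Asxl1 (572 bp), Csnk2a1 (563 bp) and Lcorl (525 bp). Among the trithorax genes they were at Smarca4, the BAF ATPase gene (960 bp), Wdr82 (902 bp), Arid1a (525 bp) and Smarcc1 (424 bp). On chromosome X, where 4.22% of protein-coding genes had a promoter peak, 2 of 7 had one: Rbbp7, the paralog of Rbbp4 (136 bp), and Ogt (177 bp). Bcor, Bcorl1, Scml2, Kdm6a and Hcfc1 had none. None of the 42 members lies on chromosome X. In 2 other sets of chromatin genes, promoter peaks were present at 14 of 20 genes for heterochromatin protein 1 and H3K9 methylation, with Cbx5 (1927 bp), Cbx3 (1646 bp), Kdm3a (720 bp) and Setdb2 (568 bp) the widest, and at 8 of 14 for DNA methylation, with Mbd3 (606 bp), Gadd45a (505 bp), Mbd2 (388 bp) and Mbd4 (236 bp) the widest. Of the heterochromatin set, Suv39h1 on chromosome X had none. Over all protein-coding genes 38.4% had a promoter peak. In CpG classes 8 to 10, with 69.8% over all genes, the heterochromatin set had one at 11 of 14 genes and the DNA methylation set at 5 of 5. In classes 1 to 7 these were 3 of 6 and 3 of 9. Counting any annotated start, 17 of 20 heterochromatin genes, 13 of 14 DNA methylation genes and 32 of the 39 autosomal genes had a peak. The members had 35 of 42 by that count, and 42.4% of all protein-coding genes had one. At least 5 distal peaks lay around 8 of 20 heterochromatin genes, 6 of 14 DNA methylation genes and 10 of the 39, beside 18 of 42 members. At least 10 lay around 5, 1 and 2 genes in the same order, beside 3 members. The medians were 3.5, 3 and 3, beside 4 in the members. Differences between these sets and the 42 genes were not tested.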

How the data were processed

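ALaP-seq had been run on 2 H2O2+ and 2 H2O2- samples. Per the submitters' processing notes and the series' design text, the authors trimmed reads with Trimmomatic, mapped them with Bowtie2 2.3.5.1 to repeat-masked mm10 and removed blacklisted and greylisted regions with bedtools. Reads could not be placed in the masked repeats. The sources used here name no peak caller, threshold or merging rule. The file that the authors deposited lists the chromosome, start and end of 26496 peaks in bp, with no score; none runs past a chromosome end of GRCm38. GENCODE M21 gave 21938 protein-coding models, and the first model was kept for each of 27 repeated symbols. Python 3.11.15 with pandas 2.3.3 counted overlaps, which were tested on simulated peaks, and samtools 1.23.1 indexed the GRCm38 sequence. Alternatives were other windows, all annotated starts, only peaks of at least 223 bp, and distal peaks away from promoters.

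The members, gene lists and measures were chosen with earlier results of these data known, so they are described by counts beside all protein-coding genes, without tests. Named were all members, the 4 widest, the X-linked and, where 5 or fewer, the listed remainder of each other list, and genes whose promoter holds a named peak. In the other lists, 1 symbol, Ezhip, was not matched. Single values of 2 genes of the other lists are not reported here.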

Additional observations from a re-analysis of the deposited data

How the results depend on the processing

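The number of members with a promoter peak stayed within 1.5 times its value under every alternative run: 26 of 42 with a window of 500 bp (36.1% of all protein-coding genes), 32 with 2 kb (40.3%), 35 with any annotated start (42.4%), 27 with only peaks of at least 223 bp (24.7%) and 30 with the peak midpoint inside the window (37.9%). The window of 500 bp removed Jarid2, Aebp2, Pcgf2, Kmt2c, Kmt2d and Setd1b. It left 7 of 10 PRC2, 7 of 12 H3K4 methyltransferase and 12 of 20 PRC1 genes with a peak. In the same order, the wider peaks alone gave 7, 10 and 10, and the midpoint rule 9, 8 and 13. Any annotated start gave 10, 11 and 14, and 2 kb left the main counts of 9, 10 and 13 unchanged. The share of PRC2 was thus above that of PRC1 in each setting run, and only the place of the H3K4 methyltransferase group changed. That group fell below PRC1 with the window of 500 bp and rose above PRC2 with the wider peaks alone. These differences were not tested. Numbers of distal peaks follow from the size of the window and of the peak set. Within 20 kb there were 76 distinct distal peaks around all 42 genes, 27 around PRC2, 22 around PRC1 and 27 around the H3K4 methyltransferase genes; within 100 kb there were 310, 84, 135 and 93. With only the wider peaks there were 95, 25, 42 and 28. Without peaks at protein-coding promoters the H3K4 methyltransferase genes had 35. The median per member stayed above that of all genes in each of these settings, for example 2 against 0 within 20 kb and 7 against 3 within 100 kb. No paired analysis was possible because the list names no sample and no result comes from a test. The depth behind the peaks is unknown here, so a gene without a peak is one without a listed region, not one shown to lie away from PML bodies.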

Other observations

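Epop, a PRC2-associated gene picked out after its values were seen, lies 70795 bp from Pcgf2 on chromosome 11 and had a promoter peak of 414 bp and 21 distal peaks. Of these, 15 were also distal peaks of Pcgf2, which is 71.4% of those of Epop and 79.0% of the 19 of Pcgf2. The peaks upstream of Mllt6 thus lay within 50 kb of the 5' ends of both genes.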
